A study of Mus musculus with 8 samples.

Results

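The genes described here code for the proteins of the cytosolic ribosome. They are all rows of the expression table whose symbol begins with Rpl or Rps, without the 9 rows of ribosomal S6 kinases and the 4 rows named as pseudogene copies. The rule uses names alone and took 83 of 13204 genes, and all 83 passed the filter on low values. Among them 46 code for proteins of the large subunit and 31 for proteins of the small subunit. Another 5 (Rpl7l1, Rpl22l1, Rpl36al, Rps27l and Rps4l) are named as copies (paralogs) of a subunit gene, and Rps19bp1 codes for a protein that binds Rps19 and is not part of the ribosome. Rps4l is annotated in the GRCm38 assembly as a transcribed processed pseudogene, so the symbol does not show that it is translated.

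All 8 libraries came from mice that received 1000000 OT-I cells, CD8 T cells with one fixed receptor for an ovalbumin peptide, 24 hours before a graft of ovalbumin-expressing skin. On day 14 spleens were combined into 4 pools of 3. From each pool 1000 cells with FcgRIIB on their surface and 1000 without it were sorted among CD8+ cells that carried Thy1.1 and much CD44. FcgRIIB is the inhibitory receptor for the constant part of IgG. The positive and the negative group thus hold 4 libraries each, numbered by pool, and differ by name only in the receptor. Ages, sexes and the strain of the recipients are not given in the sources used here. RNA of the sorted cells was amplified as full-length cDNA from poly(A) tails, and values are RPKM, reads scaled to exon length and library depth. The comparison asks whether transcripts of the translation machinery differ with this receptor on effector CD8 T cells.

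A ribosome joins a small subunit, which reads the mRNA, to a large subunit, which links the amino acids. Cells make the proteins of both in matched amounts, and most of their mRNAs begin with a C followed by a run of pyrimidines, the terminal oligopyrimidine tract, through which mTOR signalling and LARP1 set their translation and stability. T cells raise ribosome production when antigen activates them and lower it as they come to rest. A few ribosomal proteins have a paralog that can take the parent's place, and the levels of these pairs differ between tissues and cell states.

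The pairs Rps27 with Rps27l and Rps4x with Rps4l are shown first, because their ratios were the paralog ratios that did not overlap between the sorted groups. Below are 60 bases of each reference transcript of GRCm38 from the start codon on (for Rps4l, bases 55 to 114 of its transcript, which align with that stretch of Rps4x). Capitals mark the bases at which the 2 genes of a pair differ.
Rps27: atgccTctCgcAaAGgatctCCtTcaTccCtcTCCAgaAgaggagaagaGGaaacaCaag
Rps27l: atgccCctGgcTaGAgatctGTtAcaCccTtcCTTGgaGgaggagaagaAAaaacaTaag
Rps4x: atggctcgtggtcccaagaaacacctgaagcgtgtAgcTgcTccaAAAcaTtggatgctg
Rps4l: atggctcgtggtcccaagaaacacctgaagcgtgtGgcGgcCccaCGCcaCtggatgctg
The first pair differed at 18 of these 60 bases and was 75.3% identical over 255 aligned coding bases. The second differed at 7 bases and was 80.1% identical over 789 bases. No window of 50 bases was identical between the 2 genes of either pair, and the same held for Rpl22l1 with Rpl22, Rpl36al with Rpl36a and Rpl7l1 with Rpl7 (73.4%, 87.9% and 63.4% identical).

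The second set shows the start sites of genes named further on. Each line holds 30 bases of the RefSeq promoter table (GRCm38.p6), of which the last 15 begin at a listed start of transcription. Capitals mark an oligopyrimidine tract, a C followed by at least 4 letters C or T, whose first C lay within 5 bases of that start. Other runs of C and T, farther off or leading up to the marked C, stay in small letters. The tract was searched for only on the strand that reads as the mRNA does.
Rps27, chr3:90213634-90213663, minus strand: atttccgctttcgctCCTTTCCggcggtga
Rps27l, chr9:66946071-66946100, plus strand: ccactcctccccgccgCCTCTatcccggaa
Rps21, chr2:180257364-180257393, plus strand: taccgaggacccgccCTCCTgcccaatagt
Rpl38, chr11:114668565-114668594, plus strand: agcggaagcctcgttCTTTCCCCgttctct
Rpl35, chr2:39005117-39005146, minus strand: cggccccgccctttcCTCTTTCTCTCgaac
Rps6, chr4:86857353-86857382, minus strand: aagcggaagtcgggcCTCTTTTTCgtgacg
Rpl4, chr9:64173372-64173401, plus strand: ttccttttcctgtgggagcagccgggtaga
In Rps27, Rps21, Rpl38, Rpl35 and Rps6 the marked tract began at the start shown, and C or T letters also stood directly before it. In Rps27l the tract began 1 base later. In the window of Rpl4 the search found none within 5 bases of the start, and a run of C and T farther upstream lay outside that limit. Rps21 and Rps27l each had a further listed start, not shown, whose window held no tract. The table matched 62 of the 83 genes. In 13 of the 62 (21.0%) a listed start was itself a C followed by at least 4 letters C or T, against 3.01% of 27025 genes in the table. Within 5 bases of a start, 29 of the 62 (46.8%) had such a tract, against 21.2% of all genes. These matches describe letters in windows around listed starts and do not show which start the cells used.

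Depth, worked out from the steps between low RPKM values, was 16470000 to 22020000 reads in replicates 1 and 2 and 3060000 to 7360000 reads in replicates 3 and 4. Of the T cell markers, Cd3e (191 to 688 RPKM), Cd8a (153 to 330 RPKM) and Cd8b1 (404 to 1986 RPKM) were present in every library. Their presence does not show what share of the cells were T cells. Markers of other cell types differed between the groups. The summed RPKM of 16 T cell markers was 2243 to 4853 in positive and 5919 to 9439 in negative libraries, with 0 of 16 called by limma. Over all genes tested 0.268% were called lower and 3.03% higher. Of 12 dendritic cell markers 10 were called higher in positive libraries (sums of 659 to 1512 against 236 to 542 RPKM), and of 14 macrophage and monocyte markers 10 were (3810 to 7724 against 1683 to 3509 RPKM). Sums of 6 B and plasma cell markers were 451 to 989 against 76.7 to 855 RPKM and overlapped. The median log2 difference of these markers, positive minus negative, was -0.55. Sums of 5 basophil and mast cell markers were 40.6 to 707 against 2.75 to 28.0 RPKM, with Mcpt8 and Fcer1a at 0 in some library. The sums of 3 erythroid markers were 1182 to 5899 against 920 to 2254 RPKM. Called higher were 1 of the 6 B and plasma cell, 2 of the 5 basophil and mast cell and 0 of the 3 erythroid markers. The part of these markers in the results below was not tested. In bulk libraries fewer cells of a type and less RNA per cell cannot be told apart.

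Ribosomal protein transcripts were abundant in every library, and their level differed far more between pools than between the sorted groups. The median of the 83 genes was 248, 397, 777 and 949 RPKM in negative replicates 1 to 4 and 210.0, 175, 942 and 1014 RPKM in positive replicates 1 to 4. Within a pool the 2 groups were thus near each other, except in the second, where the negative library was higher. The 83 genes took 5.97, 8.13, 12.6 and 17.7% of the summed RPKM in the negative and 4.91, 4.48, 13.6 and 14.7% in the positive libraries. As shares of reads these were 2.11 to 8.18% and 1.57 to 7.83%. The shares were low in both groups of replicates 1 and 2 and high in both groups of replicates 3 and 4.

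**Figure D1:**
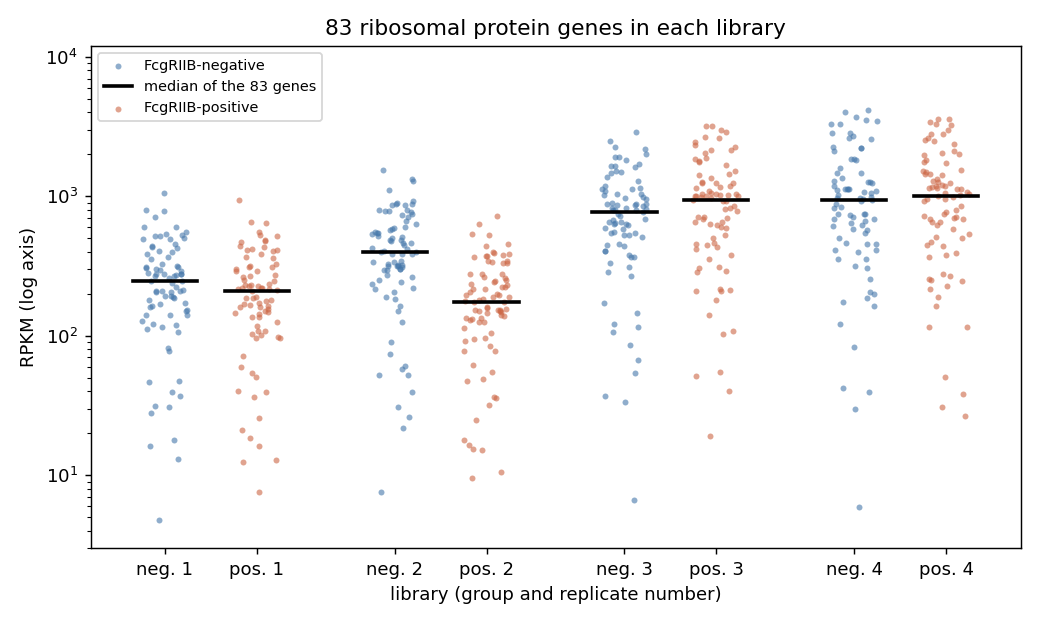
RPKM of the 83 ribosomal protein genes (log axis) in each of the 8 libraries, 1 point per gene (blue negative, red positive), with the median of each library as a black bar. The medians of replicates 3 and 4 (777 to 1014 RPKM) lie above those of replicates 1 and 2 (175 to 397 RPKM) in both groups.

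Rpl32 of the large subunit was the most abundant member in 3 libraries, with 782, 1335, 2895 and 3725 RPKM in negative and 655, 525, 3225 and 3585 RPKM in positive replicates 1 to 4. Rps14, Rps27 and Rpl35 were also among the 5 members with the highest mean. Each of these 4 was higher in every library of replicates 3 and 4 than in any of replicates 1 and 2. The least abundant members were Rps4l, Rpl34, Rps19bp1, Rpl7l1 and Rpl26. Rpl34 was at 13.2, 21.8, 37.2 and 42.3 RPKM in negative and 13.0, 9.54, 55.0 and 50.6 RPKM in positive replicates 1 to 4. The row of its pseudogene copy Rpl34-ps1 held more, 29.9, 47.7, 101 and 150 RPKM and 26.4, 20.8, 142 and 178 RPKM, so reads may be split between near-identical copies and single-gene levels of this family are uncertain.

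The pool effect was called for most members. A limma F test of the replicate number, with the group as a second term and adjusted over 11946 genes, called 69 of 83, against 34.4% of all genes tested. This test was chosen after seeing the data, and so was the split into replicates 1 and 2 against 3 and 4, which had been known from earlier results. The mean over replicates 3 and 4 was higher for 82 of 83 members, with a median of 3.86-fold. On the log2 scale the median difference was 2.03, against -0.04 over all genes tested. For 75 of 83 members all 4 libraries of replicates 3 and 4 lay above all 4 of replicates 1 and 2, which 16.6% of all genes tested did. The replicate numbers also mark depth, and summed T cell markers were 2243 to 6551 RPKM in replicates 1 and 2, against 3698 to 9439 RPKM in replicates 3 and 4. For macrophage and monocyte markers these sums were 1683 to 4215 and 3099 to 7724 RPKM, for erythroid markers 920.2 to 1259.8 and 956 to 5899 RPKM, and for basophil and mast cell markers 2.75 to 125 and 7.43 to 707 RPKM. Dendritic cell markers went from 319 to 1512 RPKM in replicates 1 and 2 and from 236 to 726 RPKM in replicates 3 and 4, and B and plasma cell markers from 76.7 to 989 and from 125 to 548 RPKM. The part of these markers in the pool difference was not tested. Pools of animals, sort, amplification and depth cannot be told apart for these differences.

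The members that differed most between the pools were small proteins, named here after their values were seen. Rps28, a small-subunit protein near the path of the mRNA, was at 140.0, 265, 558 and 1274 RPKM in negative and 108, 114, 1016 and 1265 RPKM in positive replicates 1 to 4, which is 6.57-fold higher in replicates 3 and 4. Rps21, also of the small subunit, was at 81.5, 151, 311 and 645 RPKM and 59.7, 48.9, 589 and 651 RPKM (6.44-fold). Rpl38, known for its part in the translation of Hox mRNAs, was at 205, 339, 831 and 1608 RPKM and 162, 129, 1357 and 1509 RPKM (6.35-fold). In each of these genes the lowest library of replicates 3 and 4 was the third negative one, and it stood above every library of replicates 1 and 2. Rps29 (6.20-fold) and Rpl37a (5.89-fold) followed.

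The 14 members not called in this test included Rpl3, Rpl4, Rpl5, Rpl6, Rpl7, Rpl7l1, Rpl8, Rplp0, Rps2, Rps3a1, Rps4l, Rps6 and Rpsa. Rplp0 is the core of the stalk, Rpsa sits on the surface of the small subunit and Rps6 is the substrate of the S6 kinases. Rpl7l1, a paralog of Rpl7, was the one member with a lower mean in replicates 3 and 4 (0.791-fold). It was at 37.0, 60.6, 54.2 and 29.7 RPKM in negative and 51.0, 47.3, 40.2 and 30.9 RPKM in positive replicates 1 to 4, so that the sets of libraries overlapped.

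The pool difference followed coding length within the family. Over the 77 subunit genes, each taken with the longest coding sequence annotated for it in GRCm38, the log2 difference of replicates 3 and 4 minus 1 and 2 correlated with log2 coding length at r = -0.88 (Spearman's rho = -0.92), against r = -0.29 (rho = -0.25) over 11239 genes. These are descriptions across genes, which share their libraries and are not independent replicates. The 25 shortest (138 to 405 coding bases) had a median of 5.44-fold and 25 were called in the F test. The 27 of middle length (405 to 582 bases) had 3.86-fold and 26 called, and the 25 longest (582 to 1257 bases) 2.11-fold and 14 called. The same order by length appeared in the positive against negative difference of the third pool, with medians of 0.61, 0.28 and -0.22 on the log2 scale from shortest to longest (r = -0.86 over the 77 genes, -0.05 over all genes). In pools 1, 2 and 4 r was 0.22, 0.33 and 0.00 over these 77 genes, against -0.05, 0.34 and -0.31 over all genes. The value of the 77 genes in pool 2 was thus near that of all genes. In pool 4 all genes showed a relation to length that the 77 genes did not.

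**Figure D2:**
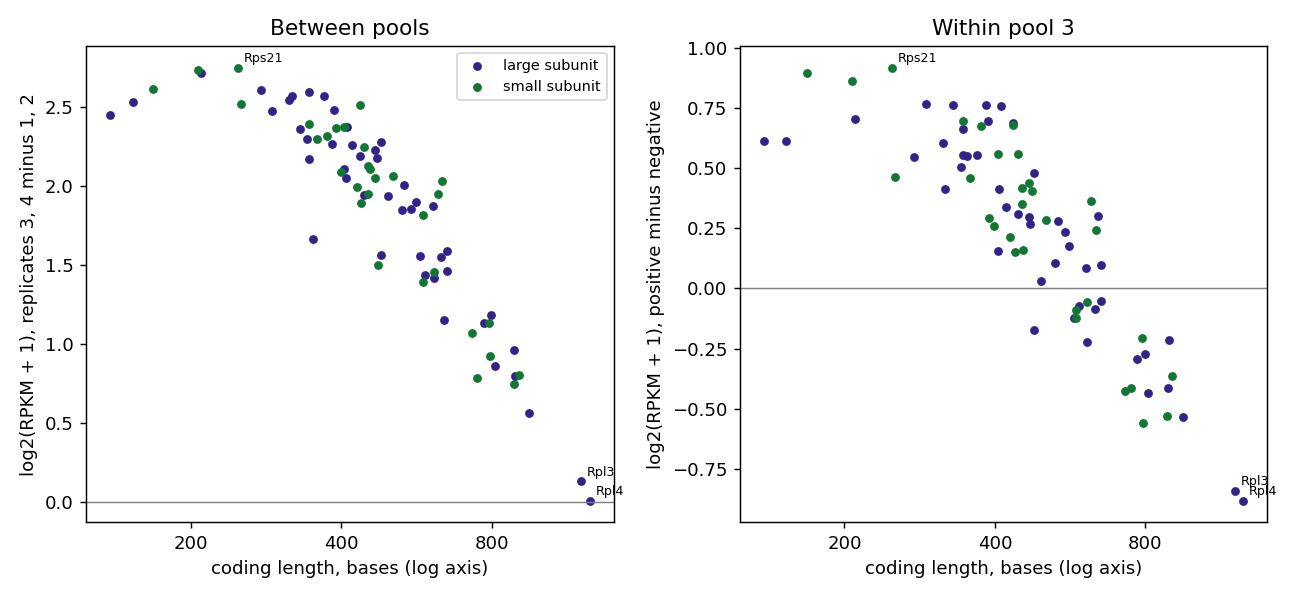
Difference in log2(RPKM + 1) of the 77 subunit genes, 1 point per gene coloured by subunit, against coding length in bases (log axis), for replicates 3 and 4 minus replicates 1 and 2 (left) and positive minus negative within the third pool (right). Both differences fall with coding length (r = -0.88 and -0.86), with Rps21 near the top and Rpl3 and Rpl4 at the bottom of both panels.

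Members also moved together across libraries. The median Pearson correlation between 2 members over the 8 libraries was 0.974, and 73 of 83 had r above 0.9 with the mean of the others. The lowest were Rpl7l1 (-0.47), Rpl4 (0.14), Rpl3 (0.29) and Rps4l (0.42). The rank order of members was near the same among libraries of replicates 1 and 2 (rho 0.965 to 0.991) and varied more among those of replicates 3 and 4 (0.871 to 0.995) and between the sets (0.699 to 0.960). Most of this shared variation lies between the pools, so it describes the pools more than the sorted groups. Among the 5 non-members with the most similar pattern, by r over 8 libraries with the members' mean, were Gm5148 (0.999), 1810022K09Rik (0.999), Uqcc3 (0.998) and Mrpl23 (0.998). Mrpl23 codes for a protein of the mitochondrial ribosome.

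Between FcgRIIB-positive and FcgRIIB-negative cells no member was called in either direction. Limma called 0 of 83 higher and 0 of 83 lower at an adjusted p of 0.05, against 3.03% of all 11946 genes higher and 0.268% lower (3.3% in all). At an unadjusted p under 0.05, 1 member (Rps4l) was higher and 0 were lower, against 7.48% and 4.67% of all genes. The fit with the pool as a block called 1 member higher (Rps4l) and 0 lower, against 7.22% and 3.85% of all genes. The median log2 difference of the 83 genes was -0.31, against -0.11 over all genes tested, and 78 of 83 lay below 0, as did 61.2% of all genes. Large-subunit genes (-0.31, 44 of 46 below 0) and small-subunit genes (-0.31, 31 of 31 below 0) had like medians, and that of the 5 paralogs was 0.16 (2 of 5 below 0).

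The lean to lower values differed between the pools. The median difference of the 83 genes was -0.26 in the first pool, -1.17 in the second, 0.30 in the third and 0.00 in pool 4, and 75, 82, 24 and 41 of them were lower in the positive library. Over all genes tested these medians were -0.05, -0.11, 0.02 and -0.26, and 53.7, 55.3, 48.9 and 69.4% were lower. In the 4 pairs 11 of 83 members had 1 direction throughout, against 30.1% of all genes, of which 10 were lower (Rpl3, Rpl4, Rpl5, Rpl6, Rpl13, Rps2, Rps3a1, Rps4x, Rps6 and Rpsa) and 1, Rps4l, was higher. The median over members turned above 0 when positive replicate 2 (0.15), positive replicate 1 (0.07) or negative replicate 4 (0.04) was left out, and it was -0.72 in replicates 1 and 2 alone and 0.15 in replicates 3 and 4 alone.

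**Figure D3:**
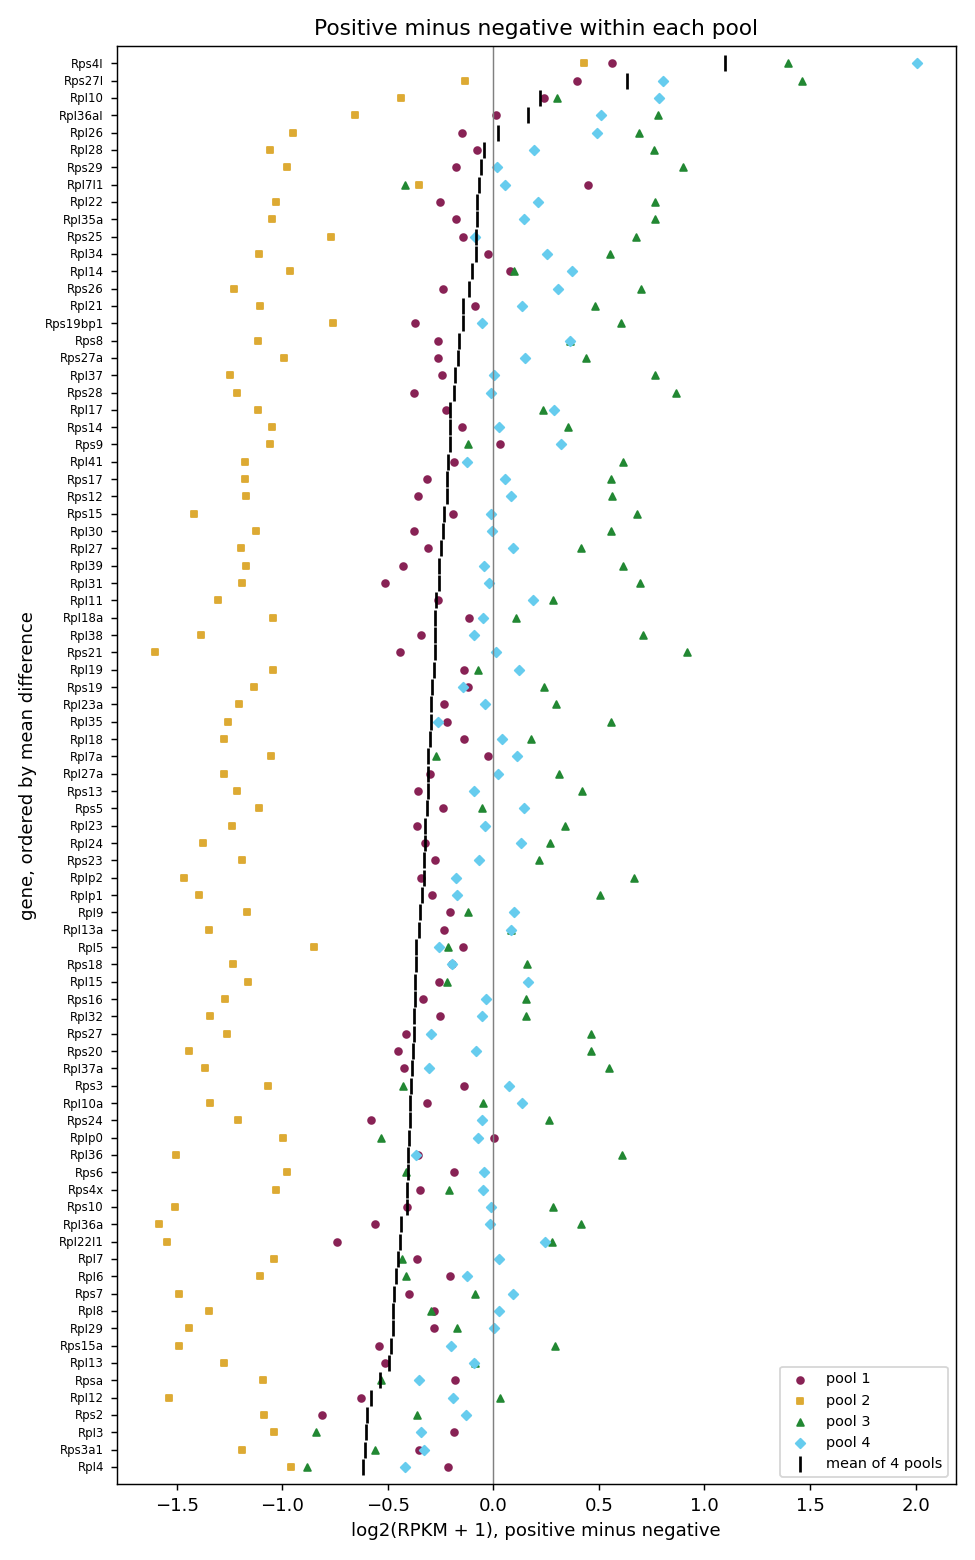
Positive minus negative difference in log2(RPKM + 1) of 82 of the 83 genes (rows, ordered by the mean difference), 1 coloured symbol per pool and a black bar at the mean of the 4 pools. Most genes lie far below 0 in the second pool (median -1.17) and above 0 in the third (median 0.30), and Rps4l at the top is above 0 in all 4.

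In the large subunit, Rpl4 and Rpl3 were the members whose groups did not overlap. Rpl4, which lines the tunnel through which the new protein leaves, was at 605, 889, 972 and 587 RPKM in negative and 520.4, 458, 527 and 439 RPKM in positive replicates 1 to 4. All positive libraries were below all negative ones. The means were 763 ± 196 and 486 ± 44.1 RPKM (SD, n = 4 each), with a log2 difference of -0.62 (SE 0.41, limma adjusted p = 0.682, and 0.281 with the replicate block). Rpl3, close to the site where peptide bonds form, was at 302, 463, 526 and 315 RPKM in negative and 265, 224, 293 and 248 RPKM in positive replicates 1 to 4. Here too the groups did not overlap (-0.60, SE 0.39, limma adjusted p = 0.665). These were 2 of 83 members without overlap, against 8.76% of all genes tested.

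Rpl12, at the base of the stalk that receives elongation factors, was at 262, 465, 796 and 1127 RPKM in negative and 169, 159.7, 812 and 988 RPKM in positive replicates 1 to 4 (-0.58). The difference lay in replicates 1 and 2, and the groups overlapped. Rpl10, which joins the large subunit late in its assembly, was at 306, 535, 828 and 628 RPKM in negative and 362, 394, 1021 and 1084 RPKM in positive replicates 1 to 4. It was the subunit gene with the largest positive difference (0.22, SE 0.54) and was higher in 3 of 4 pairs. Rpl26, known to bind p53 mRNA, had 17.9, 30.8, 67.3 and 82.5 RPKM against 16.1, 15.5, 109 and 117 RPKM, higher in the positive libraries of replicates 3 and 4 alone (0.02). For Rpl7 the values were 401, 576, 884 and 612 RPKM in negative and 313, 280.0, 654 and 624 RPKM in positive replicates 1 to 4 (-0.45), with the groups overlapping.

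In the small subunit, Rps2 and Rps3a1 had the lowest differences. Rps2, near the entry of the mRNA, was at 223, 383, 403 and 399.6 RPKM in negative and 127, 179.9, 313 and 365 RPKM in positive replicates 1 to 4. It was lower in the positive library of every pool, but the groups overlapped because the first negative library was low (-0.60, SE 0.46). Rps3a1 was at 602, 919.6, 1476 and 1076 RPKM in negative and 472, 402, 1002 and 856 RPKM in positive replicates 1 to 4. It too was lower in every pool, with overlap between the groups (-0.61, SE 0.50). Rps4x was at 314, 481, 723 and 684 RPKM and 247, 235, 625 and 660.4 RPKM (-0.41). Rps14 was at 712, 1119, 2514 and 3518 RPKM and 642, 539.8, 3207 and 3583 RPKM, lower in the positive libraries of replicates 1 and 2 and higher in those of replicates 3 and 4 (-0.21).

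None of the 5 ratios of a paralog to its parent passed the test after adjustment, and the ratios of Rps27l and Rps4l were the ones without overlap between the groups. Rps27l, a paralog of Rps27 that p53 is known to induce, was at 141, 221, 452 and 886 RPKM in negative and 186, 201, 1247 and 1549.7 RPKM in positive replicates 1 to 4. It was higher in 3 of 4 positive libraries than in their partners, and the groups overlapped. The means were 425 ± 335 and 796 ± 706 RPKM (SD, n = 4 each), with a log2 difference of 0.63 (SE 0.80, limma adjusted p = 0.932, and 0.252 with the replicate block). Rps27, a zinc-finger protein of the small subunit, was at 552, 803, 1925 and 4007 RPKM in negative and 414, 334, 2654 and 3266 RPKM in positive replicates 1 to 4. It was lower in the positive library of 3 of 4 pools (-0.38, SE 0.87).

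The ratio of Rps27l to Rps27 within a library was 0.256, 0.275, 0.235 and 0.221 in negative and 0.451, 0.603, 0.470 and 0.475 in positive replicates 1 to 4. Every positive library was above every negative one. The mean log2 ratio differed by 1.01, or 2.01-fold, and by 0.81 to 1.13 in the 4 pools, all in this direction. The two-sided exact permutation test, which has 35 distinct splits, gave p = 0.0286, the smallest it allows, and 0.0714 after Benjamini-Hochberg adjustment over 5 pairs, which misses 0.05. Exchanging labels within pools gave an exact p of 0.125, which is also the smallest possible. The ratio does not depend on the scaling of a library other than through the added 1 RPKM.

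Rps4l, listed as a pseudogene related to Rps4x, was the member with the largest positive difference, at low levels. It was at 4.79, 7.64, 6.64 and 5.91 RPKM in negative and 7.55, 10.6, 19.1 and 26.8 RPKM in positive replicates 1 to 4, from 81, 122, 46 and 17 and 117, 220, 117 and 134 reads. Positive replicate 1 lay just below negative replicate 2, and every positive library was above its own partner. The means were 6.25 ± 1.20 and 16.0 ± 8.70 RPKM (SD, n = 4 each), with a log2 difference of 1.10 (SE 0.38, limma adjusted p = 0.202). With the replicate block the limma adjusted p was 0.0135, and in replicates 3 and 4 alone, where it was the 1 member called, 0.0284 (2.29% of all genes were called higher there, 0.0921% lower and 2.38% in all). Blocked fits without 1 pool each, added after seeing the data, called it without the first (limma adjusted p = 0.0259) or second pool (5.84e-05) but not without the third (0.134) or the fourth (0.126).

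The ratio of Rps4l to Rps4x was 0.0153, 0.0159, 0.00919 and 0.00865 in negative and 0.0306, 0.0452, 0.0305 and 0.0406 in positive replicates 1 to 4. The groups did not overlap, and the log2 ratio was higher by 1.51 (2.84-fold) and in 4 of 4 pools. The exact permutation p was 0.0286, and 0.0714 after adjustment over the 5 pairs. Positive libraries also held more RNA of dendritic cell and macrophage markers (above), and the part of these in the ratios was not tested. The sources used here do not say how reads that match several copies were assigned, so the level of a processed pseudogene such as Rps4l is uncertain.

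The other pairs did not pass either. Rpl36al was at 39.8, 57.6, 122 and 175 RPKM in negative and 40.2, 36.2, 210.4 and 249.8 RPKM in positive replicates 1 to 4, and its parent Rpl36a at 142, 275, 587 and 975 RPKM and 95.8, 91.1, 782 and 966 RPKM. Their log2 ratio was 0.60 higher in positive cells, in 4 of 4 pools (exact permutation p = 0.0857, adjusted 0.107). Rpl22 is a large-subunit protein needed for the development of alpha-beta T cells, and Rpl22l1 is its paralog. The ratio of Rpl22l1 to Rpl22 was 3.93, 3.51, 3.58 and 2.76 in negative and 2.81, 2.48, 2.55 and 2.83 in positive replicates 1 to 4. This pair thus leaned the other way, with a log2 ratio 0.36 lower in positive cells and lower in 3 of 4 pools (difference -0.36, exact permutation p = 0.0571, adjusted 0.0952). For Rpl7l1 to Rpl7 the log2 ratio was 0.38 higher, in 4 of 4 pools, with an exact permutation p of 0.429 (0.125 within pools, the smallest possible).

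**Figure D4:**
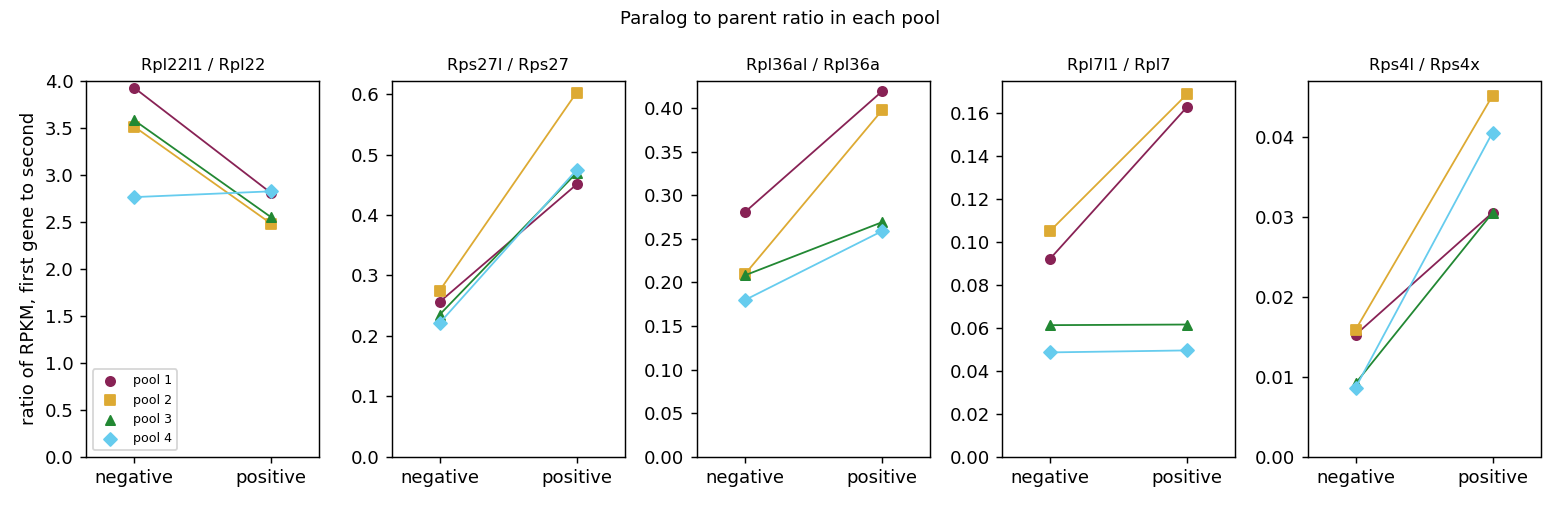
Ratio of paralog RPKM to parent RPKM in each library for the 5 pairs (linear axes that start at 0, 1 panel per pair), with a line joining the negative and the positive library of a pool. The groups are apart for Rps27l/Rps27 (0.221 to 0.275 against 0.451 to 0.603) and Rps4l/Rps4x (0.00865 to 0.0159 against 0.0305 to 0.0452) and overlap for the other 3 pairs.

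Measured against the ribosomal protein mean of each library, a rescaling chosen after seeing the data, Rps27l was the member called, and with the replicate block only. With the replicate block its log2 difference was 0.90 (SE 0.21, limma adjusted p = 0.00046), and it was the 1 of 83 members called, against 6.92% of all genes (6.39% higher and 0.536% lower). Without the block 0 of 83 were called (0.126% of all genes) and Rps27l had a limma adjusted p of 0.735. Leaving out 1 pool at a time, the blocked and rescaled limma adjusted p of Rps27l was 4.55e-05 to 0.0513 and passed in 3 of 4 fits, missing without pool 4. In such fits with the block but no rescaling, its limma adjusted p was 0.0244 to 0.688 and passed in 1 of 4. For Rps4l the blocked and rescaled limma adjusted p without 1 pool was 0.000628 to 0.446 and passed in 1 of 4. Rps4l was at 1.37 (SE 0.48, limma adjusted p = 0.0575) and Rpl10 at 0.49 (SE 0.19, limma adjusted p = 0.122) in the fit with the block. This rescaling moves the median of all genes from -0.11 to 0.16.

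Ribosomal proteins outside the naming rule had differences within the range of the members. Fau, whose product carries a small-subunit protein behind a ubiquitin-like part, was at 162, 267, 501 and 754 RPKM in negative and 149, 133, 806 and 846 RPKM in positive replicates 1 to 4 (-0.07). It was higher in every library of replicates 3 and 4 than in any of replicates 1 and 2. Gnb2l1, the gene of the scaffold protein Rack1 on the small subunit, was at 182, 262, 321 and 279 RPKM and 147, 126, 235 and 222 RPKM (-0.53), lower in every positive library than in its partner.

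Genes that build ribosomes and other oligopyrimidine mRNAs gave no call without the block. Of 40 ribosome biogenesis genes limma called 0 (2 lower at an unadjusted p under 0.05, against 4.67% of all genes), with a median log2 difference of -0.32 and 36 of 40 below 0, as were 61.2% of all genes. The median was below 0 in each pool (-0.18, -0.59, -0.49 and -0.23), and 16 of 40 genes were lower in all 4 pairs, against 19.8% of all genes. With the replicate block 3 were called lower, against 3.85% of all genes. These were Rrp9, which binds the U3 RNA that guides processing of ribosomal RNA, Nob1, which makes the last cut of small-subunit RNA, and Dkc1, which modifies ribosomal RNA. Rrp9 was at 50.0, 66.1, 43.1 and 31.3 RPKM in negative and 26.9, 21.8, 24.4 and 19.1 RPKM in positive replicates 1 to 4, without overlap (limma adjusted p = 0.007 with the block). Nob1 was at 20.0, 36.2, 38.1 and 19.1 RPKM and 18.0, 14.9, 14.7 and 12.6 RPKM, also without overlap. Dkc1 was at 53.2, 86.99, 42.5 and 19.6 RPKM and 39.7, 41.7, 17.6 and 15.05 RPKM, and here the groups overlapped. Over all genes tested, 8.76% had groups that did not overlap. Unlike the ribosomal proteins, this list leaned lower in replicates 3 and 4 (median log2 difference -0.67 against 2.03, and -0.04 over all genes tested). Its genes were mixed, from -1.63 (Heatr1) to 2.62 (Nop10). The difference between the lists was not tested, and they were not matched for coding length. Of its 40 genes 17 were called in the F test of the replicate number, against 34.4% of all genes. Of 17 other oligopyrimidine mRNAs limma called 0 (0 at an unadjusted p under 0.05, and 0 with the block), with a median of -0.35. Eef1a1, the elongation factor that brings tRNA to the ribosome, was at 1056, 1348, 1424 and 1003 RPKM in negative and 940.1, 803, 898 and 731 RPKM in positive replicates 1 to 4, lower in every positive library than in its partner. Of these 17 genes 9 were called in the F test of the replicate number, against the same 34.4% (median log2 difference 0.49).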

How the data were processed

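The authors deposited 1 table of RPKM values per gene (per the file headers). The submitters' processing notes name TopHat2 (no version) and mm9, a mouse genome build. Neither the counting tool nor the use of strand is given in the sources used here, so reads of overlapping or antisense genes cannot be told apart. RPKM is not a count, so limma 3.58.1 in R 4.3.3 (lmFit, eBayes with a trend) was run on log2(RPKM + 1) over the 11946 genes that reached 1 RPKM in 4 or more of 8 libraries, two-sided and with no term but the group. P-values were adjusted by Benjamini-Hochberg over these genes, with a threshold of 0.05. Differences are positive minus negative on this scale, which understates changes of low genes. Symbols of 21 genes that had been turned into dates were restored by gene ID. Libraries with one replicate number come from one pool of spleens, per the series' design text. Their deviations from group means had correlations of 0.70, 0.41, 0.56 and 0.68 in the 4 pools, so a second fit took the replicate number as a block. Paralog ratios were compared by exact permutation tests over the 35 distinct splits. Depth was recovered from RPKM steps, with 100% of the values checked whole within 0.1 reads. It varied about as the pools did, so error comes from replicate spread, and reads of amplified cDNA are not independent molecules. The members and lists were chosen with earlier results of these data known. Named members were any called, the 5 largest and 5 smallest differences at a mean of at least 10 RPKM, the 5 most and least abundant, and both genes of each paralog pair. Single-gene values of some genes the rule took are not reported here. Biogenesis and oligopyrimidine genes were named if called, or as the most abundant. Coding lengths and transcripts came from GENCODE (GRCm38), promoter windows from RefSeq, and no mm9 genome was used. Alternatives were other pseudocounts, filters, scalings, leaving out libraries and subsets of pools.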

Additional observations from a re-analysis of the deposited data

Results flagged for a closer look

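Of 54 groups of 4 libraries tested for a single library far from the rest, 2 were flagged, where chance flags about 1 in 20. The Rps2 level of negative replicate 1 was 223 RPKM, while the other negative libraries were at 383 to 403 RPKM. The ratio of Rps27l to Rps27 in positive replicate 2 was 0.603, while the other positive libraries were at 0.451 to 0.475. Without that library the log2 ratio still differed by 0.92 between the groups.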

How the results depend on the processing

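Over all genes tested, 362 were called higher and 32 lower. Higher counts were 863 with the replicate block, 875 in replicates 1 and 2 alone, 15 after rescaling to the ribosomal protein mean and 763 with that rescaling and the replicate block, and 178 to 503 with 1 library left out (178 without negative replicate 3). Lower counts were 460 with the replicate block, 19 by median ratios, 57 by quantiles, 142 in replicates 1 and 2 alone, 11 in replicates 3 and 4 alone, 0 and 64 after rescaling to the ribosomal protein mean without and with the block, and 5 to 45 with 1 library left out. Of ribosomal proteins, 1 was called higher with the replicate block, in replicates 3 and 4 alone, and with the rescaling and the block together. Of biogenesis genes 3 were called lower with the block and 1 in replicates 1 and 2 alone. With 1 library left out, no member (0 of 83) was called in either direction and their median difference was -0.71 to 0.15, while the paralog log2 ratio differences were 0.92 to 1.06 (Rps27l), 1.36 to 1.65 (Rps4l), 0.48 to 0.73 (Rpl36al), 0.11 to 0.70 (Rpl7l1) and -0.46 to -0.30 (Rpl22l1). The ratios of Rps27l, Rps4l and Rpl22l1 passed (exact permutation p of 0.048 adjusted over 5 pairs) without negative replicate 4 alone. The block, whose pairing by pool is given by the design, changed the call of 1 of 22 named members, Rps4l.

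Differences that turned sign were all of members not called. In replicates 1 and 2 alone they were -0.10 (Rpl10), -0.55 (Rpl26), -0.32 (Rpl36al) and 0.0496 (Rpl7l1). In replicates 3 and 4 alone they were 0.49 (Rpl22), 0.0502 (Rpl32), 0.20 (Rpl36a), 0.19 (Rps14), 0.0841 (Rps27), 0.15 (Rpl35), 0.28 (Rps19bp1), 0.26 (Rpl22l1) and 0.40 (Rpl34). By quantiles they were -0.0035 (Rpl26) and 0.0613 (Rpl7l1), and after rescaling to the ribosomal protein mean, with or without the block, 0.19 (Rpl22), 0.0628 (Rps14), 0.20 (Rpl7l1), 0.12 (Rps19bp1) and 0.19 (Rpl34). With 1 library left out the ranges of members that turned sign were -0.0501 to 0.49 (Rpl10), -0.56 to 0.40 (Rpl22), -0.96 to 0.0738 (Rpl22l1), -0.45 to 0.49 (Rpl26), -0.82 to 0.10 (Rpl32), -0.46 to 0.34 (Rpl34), -0.83 to 0.23 (Rpl35), -1.02 to 0.11 (Rpl36a), -0.31 to 0.61 (Rpl36al), -0.25 to 0.0883 (Rpl7l1), -0.65 to 0.26 (Rps14), -0.48 to 0.17 (Rps19bp1) and -0.92 to 0.17 (Rps27). The cause was not tested. The rescalings to the ribosomal protein mean, the F test of the replicate number and the blocked fits without 1 pool were chosen after seeing the data. The pseudocount, the filter, a common sum and the sum of other genes changed no sign or call of the 22 named members. The 17 reads of Rps4l in negative replicate 4 are few, and set the precision of its level there.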
